A study of Homo sapiens with 148 samples.

Results

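The potassium channel genes described here were the rows of the expression table with a name made of KCN, further letters and a closing number, and with a mean level of at least 1 TPM in at least one of 6 stages of pancreatic differentiation. TPM is a measure of RNA abundance in which reads are divided by the transcript's length and each sample is scaled to a total of 1000000, so that levels of different genes can be compared. Of 94 names of that form among the 49085 gene names of the table, 72 reached 1 TPM and 22 did not. Because the members were selected on the same TPM values that are described below, all values and counts are descriptions without a test. The members just above the limit were KCNK9 (highest mean 1.03 TPM), KCNJ15 (1.05 TPM), KCNJ6 (1.13 TPM) and KCNQ3 (1.13 TPM). The names just below it were KCNN4 (0.899 TPM), KCNJ9 (0.877 TPM), KCNS1 (0.851 TPM) and KCNK3 (0.785 TPM).

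RNA was sequenced from H9, an established line of human embryonic stem cells (hESCs) with a wild-type genotype, and from cells and organoids derived from it by directed differentiation. The stages were undifferentiated hESCs, definitive endoderm (DE) at day 4, primitive gut tube (PGT) at day 7, pancreatic progenitors (PP) at day 14, organoids with stem-cell-derived β cells (SC-β) at day 35, and a stage labelled PH, which neither the labels nor the study's text defines. The labels give the same genotype and the same pancreatic differentiation for every stage after hESCs, and all came from this single line. Of 148 samples in the series 12 were RNA-seq samples, with 2 at each stage, and the deposited table gives 1 mean per gene and stage, so no spread between replicates, error or read depth could be attached to a value. The cells and organoids were sequenced in bulk, where fewer cells of a type and less RNA per cell cannot be told apart.

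Potassium channels let potassium leave or enter the cell along its gradient and so set the resting membrane potential and end action potentials. In pancreatic β cells the channel made of KCNJ11 and the sulphonylurea receptor ABCC8 closes when glucose metabolism raises ATP, the membrane depolarises, calcium enters through voltage-gated channels and insulin is released. Voltage-gated, calcium-activated and two-pore channels then repolarise the membrane and limit calcium entry. Accessory subunits, among them KCNIP, KCNAB, KCNE and KCNMB proteins, form no pore of their own and change the gating or the transport of the pore-forming subunits.

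By class, the 72 members comprised 30 of 40 voltage-gated (Kv) pore-forming genes, 11 of 12 Kv auxiliary genes, 13 of 16 inward rectifiers, 10 of 14 two-pore channels, 5 of 8 calcium- or sodium-activated pore genes and 3 of 4 β subunits of the large-conductance calcium-activated (BK) channel. Most members were at low levels. In some stage 32 members reached 5 TPM and 15 reached 10 TPM, whereas 7 members were listed at 0 in at least one stage and 16 were at 1 TPM or more in every stage.

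The number of members at 1 TPM or more was 25 in hESCs, 41 at DE, 39 at PGT, 38 at PP, 45 at PH and 58 at SC-β. Their median level was 0.482 TPM in hESCs, 1.16 at DE, 1.15 at PGT, 1.05 at PP, 1.33 at PH and 2.18 at SC-β. Members at this level were thus most numerous in SC-β organoids and fewest in hESCs, and the same held for all gene names (24571 in SC-β and 16784 in hESCs). The summed level followed another order, with 161 TPM in hESCs, 309 at DE, 229 at PGT, 170 at PP, 214 at PH and 280 at SC-β. KCNK1 alone gave 60.4 TPM of the sum in DE and 68.4 TPM of that in PGT. The most abundant member was KCNG1 in hESCs (25.3 TPM), KCNK1 in DE and PGT, and KCNK5 in PP (14.6 TPM).

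**Figure D1:**
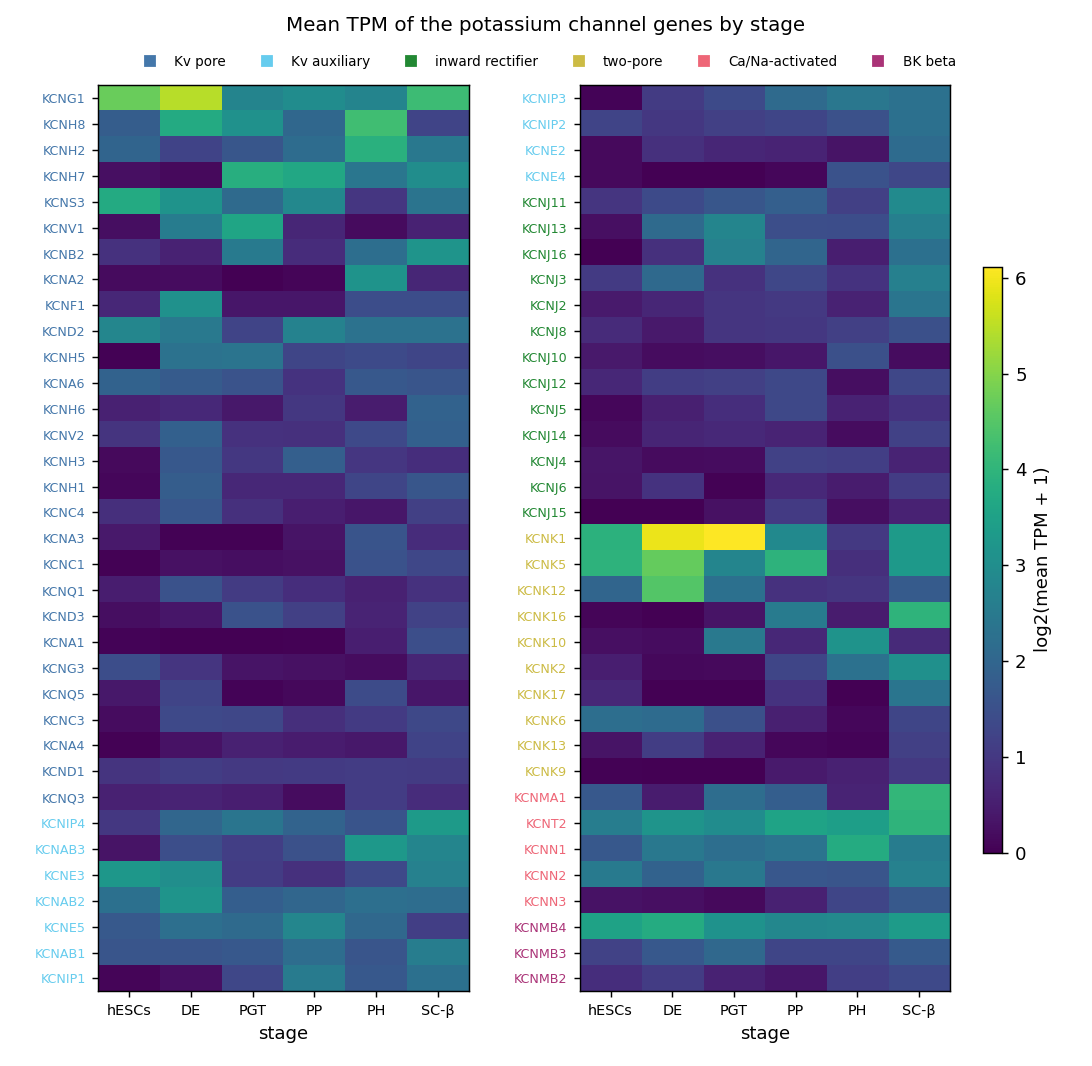
Heat map of log2(mean TPM + 1) for 70 of the potassium channel genes (rows, with names coloured by class) in the 6 stages (columns), 1 authors' mean per cell. KCNK1 is brightest in DE and PGT, KCNA2 in PH, and KCNK16 and KCNMA1 are brightest in the SC-β column.

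Each member was assigned to the stage with its highest mean. This was SC-β for 25 members, PH for 15, DE for 11, PGT for 8, PP for 7 and hESCs for 6. The 25 members of SC-β made 34.7% of the list, beside 38.8% of the 28202 gene names that passed the same 1 TPM limit, and the 15 of PH made 20.8%, beside 13.5%. Among protein-coding names alone the shares were 31.4% in SC-β and 13.0% in PH. The members' share in SC-β thus lay between those of coding genes and of all names. Their shares in PH and in PP (9.72%, beside 4.66% of all and 5.85% of coding names) were above both. In DE (15.3%, beside 20.6% of all and 22.1% of coding names) and in hESCs (8.33%, beside 12.5% and 15.7%) they were below both. The share in PGT (11.1%) lay between 9.94% of all and 12.0% of coding names. A stricter count took only members at least 2-fold above every other stage on the scale of log2(TPM + 1), and 14 members (19.4%) met it, beside 13.5% of all names. They included KCNF1 and KCNK12 in DE, KCNV1 in PGT, KCNA2, KCNH2, KCNJ10 and KCNN1 in PH, and KCNE2, KCNJ11, KCNJ2, KCNK16, KCNK17 and KCNMA1 in SC-β. No member met it in hESCs or PP.

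Stages were then compared in pairs by log2((TPM + 1)/(TPM + 1)), with a change counted from 2-fold; the added 1 TPM makes this ratio smaller than the plain ratio for genes at low levels. From hESCs to DE, 14 members were at least 2-fold higher and 1 was lower, beside 22.5% higher and 4.43% lower among all names. The median log2 ratio was 0.26 for the members and 0.44 for all names. KCNK12, KCNF1 and KCNV1 had the largest ratios (log2 2.48, 2.42 and 2.35), and KCNMA1 was the member that was lower (-1.22). When each stage was rescaled by its median ratio over the genes that reached 1 TPM in all 6 stages, the split was 9 higher and 3 lower, beside 12.7% and 8.32% of all names.

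From DE to PGT, 8 members were at least 2-fold higher (4.00% of all names) and 12 were lower (8.56% of all names). The higher members included KCNH7 (log2 3.70), KCNK10 (2.26) and KCNB2 (1.91), and the lower ones KCNF1 (-2.73), KCNG1 (-2.70) and KCNK12 (-2.20). From PGT to PP, 5 members were higher (4.77% of all names) and 8 were lower (5.65% of all names). KCNK16 (2.23), KCND2 (1.45) and KCNIP1 (1.26) were highest in ratio, and KCNK1 (-3.22), KCNV1 (-2.94) and KCNK10 (-1.78) lowest. With a few abundant structural RNAs removed from the totals, 10 members were higher and 8 lower at this step, beside 7.07% and 6.09% of all names. From DE to PGT the member shares (11.1% and 16.7%) lay above those of all names in each direction. From PGT to PP the share of higher members (6.94%) was above the 4.77% of all names and near the 6.71% of protein-coding genes. The share of lower members (11.1%) was above the 5.65% of all names and the 6.69% of protein-coding genes.

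From PP to SC-β, 22 members (30.6%) were at least 2-fold higher, beside 18.5% of all names, and 2 were lower (KCNE5, log2 -1.69, and KCNH3, -1.03), beside 1.63% of all names. The median log2 ratio was 0.52 for the members and 0.39 for all names. After rescaling, 13 members were higher and 2 lower, beside 12.2% and 2.63% of all names. The 22 comprised 6 Kv pore genes, 5 Kv auxiliary genes, 4 inward rectifiers, 4 two-pore channels and 3 calcium-activated pore genes. KCNB2 (2.38), KCNMA1 (2.22) and KCNE3 (1.82) had the largest ratios.

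Across the whole course, from hESCs to SC-β, 27 members (37.5%) were at least 2-fold higher and KCNS3 (log2 -1.38) was lower. All names gave 38.6% higher and 6.44% lower, so the share of higher members was near that of all genes. After rescaling the split was 23 higher and 7 lower, beside 26.0% and 11.7% of all names. KCNK16 (3.90), KCNH7 (2.75) and KCNK2 (2.54) had the largest ratios.

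**Figure D2:**
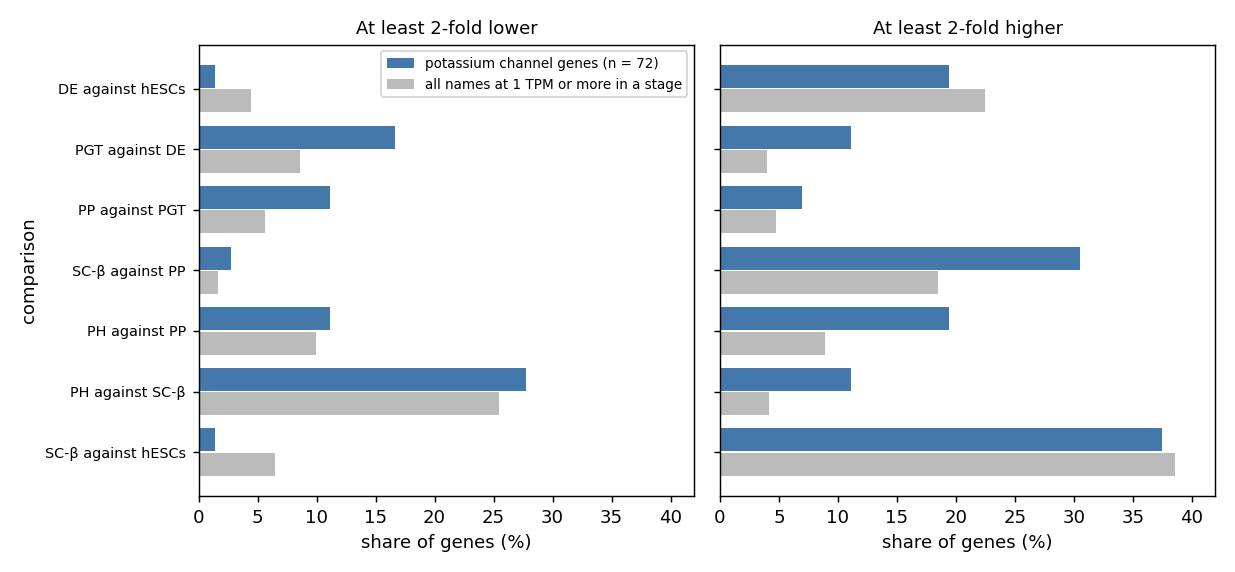
Share of the 72 potassium channel genes (blue) and of the 28202 gene names at 1 TPM or more in a stage (grey) that were at least 2-fold lower (left) or higher (right) in each of 7 stage comparisons, in percent. In the comparison of SC-β with PP the members' bar for higher genes reaches 30.6% and the grey bar 18.5%, whereas both reach similar values in the comparison of SC-β with hESCs (37.5% and 38.6%).

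Two-pore channels carry background potassium current, and their summed level was 36.8 TPM in hESCs, 111 at DE, 85.3 at PGT, 30.4 at PP, 15.4 at PH and 50.8 at SC-β. KCNK1, a weakly rectifying channel of this class, was at 14.1 TPM in hESCs, 60.4 at DE, 68.4 at PGT, 6.43 at PP, 1.02 at PH and 9.09 at SC-β. It was thus high in DE and PGT, with the highest mean of any member, below its hESC level in PP and SC-β, and low in PH. KCNK5, whose channel is sensitive to alkaline pH, was at 14.4 TPM in hESCs, 24.7 at DE, 5.83 at PGT, 14.6 at PP, 0.770 at PH and 8.69 at SC-β. It was above 5 TPM in every stage other than PH. KCNK12 was at 2.99 TPM in hESCs, 21.2 at DE, 3.82 at PGT, 0.833 at PP, 0.921 at PH and 2.38 at SC-β, a peak in DE alone.

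Another set of two-pore channels was below 1 TPM in hESCs and DE and had its maxima in SC-β or PH. KCNK16 encodes a channel opened at alkaline pH whose expression is known to be concentrated in pancreatic islets. Its means were 0.0522 TPM in hESCs, 0 at DE, 0.246 at PGT, 4.83 at PP, 0.389 at PH and 14.7 at SC-β. It was thus detected above 1 TPM in PP and SC-β and in no other stage, and its log2 ratio of PH against SC-β (-3.50) was the lowest of all members. KCNK17, its closest relative, was at 0.601 TPM in hESCs, 0 at DE, 0.0145 at PGT, 0.850 at PP, 0 at PH and 4.21 at SC-β, and so passed 1 TPM in SC-β only (this gene was chosen after its values were seen).

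KCNK2 and KCNK10 encode mechanosensitive channels that are opened by lipids. KCNK2 was at 0.435 TPM in hESCs, 0.0979 at DE, 0.119 at PGT, 1.44 at PP, 3.87 at PH and 7.36 at SC-β, and was thus higher in PH and SC-β than in the other stages. KCNK10 was at 0.187 TPM in hESCs, 0.152 at DE, 4.53 at PGT, 0.610 at PP, 7.88 at PH and 0.647 at SC-β. The relatives thus differed in SC-β, where KCNK2 was high and KCNK10 low. The other 3 two-pore members, KCNK6, KCNK9 and KCNK13, stayed at or below 3.66 TPM in every stage.

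KCNK16 and KCNK17 lie 236 bases apart on the reverse strand of chromosome 6, at chr6:39314698-39322968 and chr6:39299001-39314461 in GENCODE version 44 on GRCh38, and KCNK5 follows 69525 bases further on the same strand. Whether reads through the end of KCNK16 contribute to KCNK17 was not tested. Their RefSeq promoters (GRCh38.p14, 250 bases before to 50 after a transcript start) are shown beside that of KCNK1 (chromosome 1, forward strand), the most abundant member, because KCNK16 and KCNK17 were highest in SC-β and KCNK1 in PGT. They are written 5′ to 3′ on the gene's strand with every CG in capitals, as chr6:39322919-39323218 for KCNK16, chr6:39314370-39314669 for KCNK17 and chr1:233613856-233614155 for KCNK1.
KCNK16: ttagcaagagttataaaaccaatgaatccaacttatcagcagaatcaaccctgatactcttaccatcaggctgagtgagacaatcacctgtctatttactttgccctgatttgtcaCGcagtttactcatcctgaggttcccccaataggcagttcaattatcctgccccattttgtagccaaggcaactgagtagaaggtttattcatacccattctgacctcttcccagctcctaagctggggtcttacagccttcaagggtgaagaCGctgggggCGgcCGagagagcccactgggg
KCNK17: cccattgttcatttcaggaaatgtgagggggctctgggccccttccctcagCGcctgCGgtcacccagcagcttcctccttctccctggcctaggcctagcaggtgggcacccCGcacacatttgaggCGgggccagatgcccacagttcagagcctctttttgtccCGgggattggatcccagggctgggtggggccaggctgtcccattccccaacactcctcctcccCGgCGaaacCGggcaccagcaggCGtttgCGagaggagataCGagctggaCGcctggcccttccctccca
KCNK1: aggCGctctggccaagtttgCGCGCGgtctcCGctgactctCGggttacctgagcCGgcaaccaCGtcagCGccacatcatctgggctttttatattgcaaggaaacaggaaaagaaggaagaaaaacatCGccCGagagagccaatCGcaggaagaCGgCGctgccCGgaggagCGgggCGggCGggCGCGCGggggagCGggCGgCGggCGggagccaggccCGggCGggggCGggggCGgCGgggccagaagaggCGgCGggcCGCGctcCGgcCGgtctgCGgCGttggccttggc
The KCNK16 window holds 4 CG in 300 bases at 48.0% G+C, that of KCNK17 12 at 64.3% and that of KCNK1 38 at 70.7%. A second RefSeq start of KCNK16 (chr6:39322653-39322952) has 8.

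Promoter windows were available for 54 members (86 windows), and CG content was compared with 35116 windows of 27305 genes. The median was 18 CG for members and 14 for all windows, with a range of 1 to 54 among the members. Grouped by the stage of highest level, the median was 27 in PH, 23 in hESCs, 22 in DE, 15.5 in PP, 12 in SC-β and 7 in PGT. These groups held 6 to 33 windows of 5 to 21 genes, with 11 windows of 6 genes in PGT. A gene with several windows, some of them overlapping, was counted once per window. Medians with 1 value per gene were not computed, so the order of the stages may rest on genes with many windows. Motifs of 6 or 7 letters were searched on both strands. TATAAA was found in 9.30% of member windows and 11.5% of all windows, TGTTTAC in 2.33% and 3.42%, GTTAAT in 10.5% and 6.88%, and GTTGCC in 11.6% and 12.2%. The KCNK16 and KCNK1 windows shown above each hold TATAAA and GTTGCC on one of the strands.

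Inward rectifiers pass current more easily into than out of the cell, and their summed level was 4.89 TPM in hESCs, 13.2 at DE, 19.3 at PGT, 17.6 at PP, 10.4 at PH and 32.8 at SC-β. No member of this class reached 10 TPM. KCNJ11, the pore of the ATP-sensitive channel (ENSG00000187486.7, chr11:17365172-17389331, reverse strand), was at 0.934 TPM in hESCs, 1.58 at DE, 2.11 at PGT, 2.64 at PP, 1.24 at PH and 6.56 at SC-β. It was thus highest of its class in SC-β and more than 2-fold above every other stage on the log2(TPM + 1) scale, although the ratio against PP (log2 1.05) was 0.82 after rescaling and 0.97 without structural RNAs, both under 2-fold. Its partner ABCC8 was at 0.318 TPM in hESCs, 0.581 at DE, 0.475 at PGT, 4.27 at PP, 4.54 at PH and 38.3 at SC-β. The receptor was thus at a higher level than the pore in PP, PH and SC-β, and its ratio of SC-β against PP (log2 2.90) was larger than that of KCNJ11. ABCC9, the other sulphonylurea receptor, stayed at or below 1.27 TPM, and KCNJ8, the other pore of ATP-sensitive channels, at or below 1.81 TPM.

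KCNJ13, a rectifier of transporting epithelia, was at 0.197 TPM in hESCs, 3.35 at DE, 5.83 at PGT, 1.75 at PP, 1.72 at PH and 5.25 at SC-β. KCNJ16, which forms channels together with KCNJ10 or KCNJ15 in epithelia and glia, was listed at 0 in hESCs and was at 0.798 TPM in DE, 5.50 in PGT, 2.99 in PP, 0.417 in PH and 3.75 in SC-β. Both had one maximum in PGT and another in SC-β. KCNJ10 reached its highest mean in PH (1.80 TPM) and KCNJ15 in PP (1.05 TPM).

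KCNJ2, which stabilises the resting potential, was at 4.16 TPM in SC-β and between 0.364 and 1.03 TPM in the other stages. KCNJ3, a subunit of channels opened by G proteins, had 3.27 TPM in DE, 5.31 TPM in SC-β and at most 1.46 TPM elsewhere. Its possible partners KCNJ5 and KCNJ6 stayed at or below 1.49 TPM. KCNJ12 was between 0.179 and 1.501 TPM, and these values are uncertain because its sequence is nearly identical to that of KCNJ18. The rectifiers other than KCNJ11 and KCNJ13 were named after their values were seen.

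**Figure D3:**
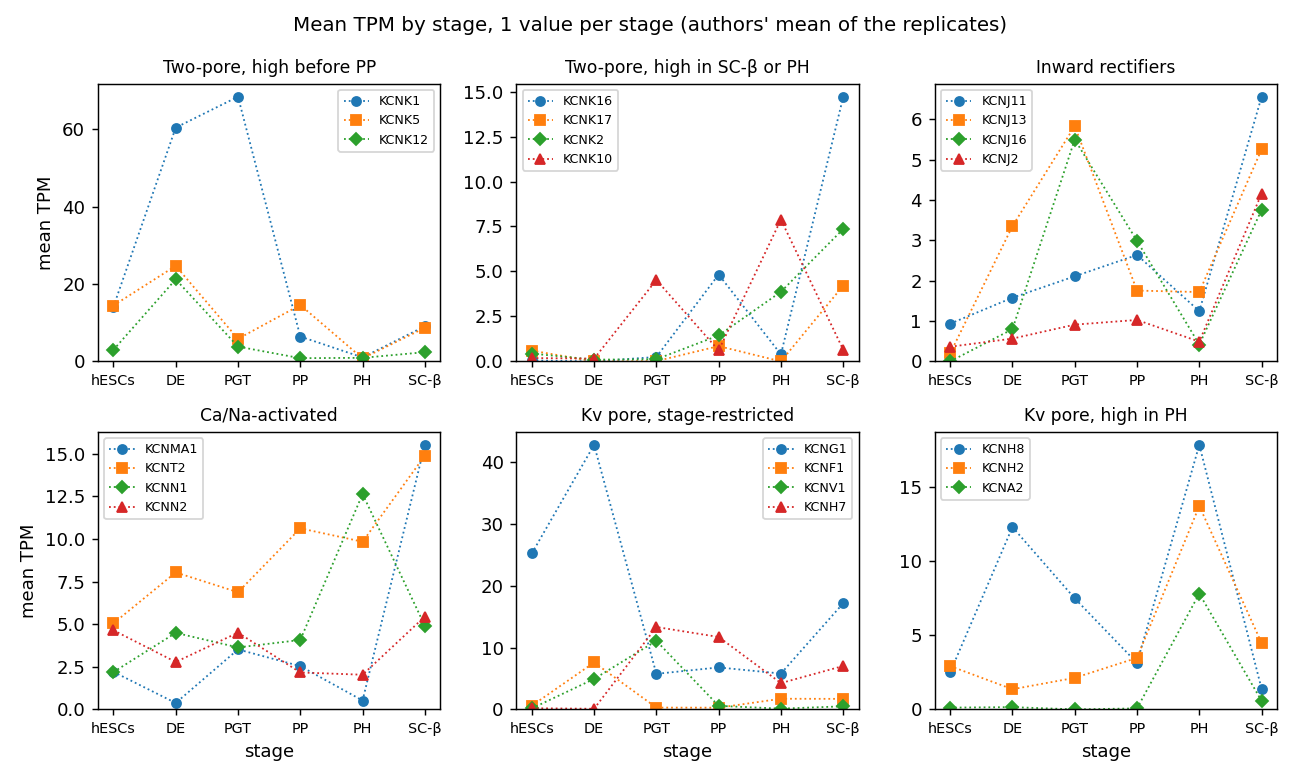
Mean TPM (linear axes starting at 0) in the 6 stages for 22 potassium channel genes in 6 panels, with 1 authors' mean per stage and dotted lines joining the stages for reading only. KCNK1 is near 60 to 70 TPM in DE and PGT, KCNK16 and KCNMA1 are highest in SC-β, and KCNH8, KCNH2 and KCNA2 are highest in PH.

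Calcium- and sodium-activated channels link the potassium conductance to ion entry. Their 5 pore-forming members summed to 14.3 TPM in hESCs, 15.9 at DE, 18.6 at PGT, 19.9 at PP, 26.5 at PH and 43.0 at SC-β. KCNMA1, the pore of the BK channel, was at 2.203 TPM in hESCs, 0.377 at DE, 3.52 at PGT, 2.54 at PP, 0.523 at PH and 15.5 at SC-β. It was thus low in DE and PH and several times higher in SC-β than at any other stage. The table also lists 2 antisense entries at this locus above 1 TPM, which were highest in SC-β too (KCNMA1-AS1, 3.03 TPM, and KCNMA1-AS3, 2.13 TPM). The libraries were strand-specific according to the labels, but whether the counting used strand is not given in the sources used here, so reads of the gene and of its antisense partners may not be separated.

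KCNT2, a sodium-activated channel, was at 5.05 TPM in hESCs, 8.03 at DE, 6.87 at PGT, 10.6 at PP, 9.83 at PH and 14.9 at SC-β. It was present at more than 5 TPM in all stages and highest in SC-β. KCNN1, a small-conductance calcium-activated channel of neurons, was at 2.19 TPM in hESCs, 4.49 at DE, 3.63 at PGT, 4.07 at PP, 12.6 at PH and 4.90 at SC-β. Its relatives KCNN2 and KCNN3 were highest in SC-β instead (5.45 and 2.28 TPM; named after their values were seen).

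The BK β subunits modify the calcium sensitivity and inactivation of the KCNMA1 channel. KCNMB4, the neuronal β subunit, was at 10.6 TPM in hESCs, 12.5 at DE, 7.73 at PGT, 6.12 at PP, 6.36 at PH and 9.21 at SC-β. None of the 3 members of this class differed 2-fold on the log2(TPM + 1) scale in any of the 7 comparisons. KCNMB2 was close to it in SC-β against PP (1.56 and 0.285 TPM, log2 0.997). With a pseudocount of 0.1 TPM, KCNMB2 passed 2-fold in SC-β and in PH (1.18 TPM) against PP, and KCNMB3 in PP against PGT. KCNMB4 was above KCNMA1 in every stage except SC-β. KCNMB3 was between 1.31 and 3.20 TPM.

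Kv pore-forming genes encode channels that open on depolarisation. The class as counted here also holds silent subunits, which form no channel alone. Its summed level was 73.2 TPM in hESCs, 124 at DE, 75.1 at PGT, 66.3 at PP, 121 at PH and 94.1 at SC-β, the highest of the 6 classes in hESCs, DE, PP, PH and SC-β. The silent subunit KCNG1 gave 25.3 TPM of this sum in hESCs and 42.8 TPM in DE, where two-pore channels summed to 36.8 and 111 TPM. The ranking without silent subunits was not computed.

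Within the ether-à-go-go family, KCNH2, the pore of the rapid delayed rectifier, was at 2.92 TPM in hESCs, 1.36 at DE, 2.13 at PGT, 3.47 at PP, 13.7 at PH and 4.48 at SC-β. KCNH8 was at 2.50 TPM in hESCs, 12.3 at DE, 7.49 at PGT, 3.13 at PP, 17.8 at PH and 1.39 at SC-β. KCNH7 was at 0.193 TPM in hESCs, 0.106 at DE, 13.3 at PGT, 11.7 at PP, 4.27 at PH and 7.04 at SC-β. These 3 relatives thus had different courses, KCNH2 and KCNH8 with a maximum in PH and KCNH7 with high levels in PGT and PP. KCNH3 was highest in PP (2.58 TPM).

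KCNA2, a Shaker-type channel of axons, was between 0.00393 and 0.155 TPM from hESCs to PP, at 7.81 TPM in PH and at 0.581 TPM in SC-β. Its neighbour KCNA3 lies 22085 bases away on chromosome 1 and was also highest in PH (2.00 TPM). Only members that followed each other along a chromosome were paired. Of 7 such pairs within 250 kb, 2 shared the stage of their highest level, KCNA2 with KCNA3 and KCNK16 with KCNK17. The share among pairs of other genes was not computed.

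KCNB2, a delayed rectifier, was at 0.824 TPM in hESCs, 0.491 at DE, 4.62 at PGT, 0.725 at PP, 3.64 at PH and 7.95 at SC-β. KCNG1, KCNF1, KCNV1 and KCNS3 form no channels alone and modify those of the KCNB family.

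KCNG1 was at 25.3 TPM in hESCs, 42.8 at DE, 5.76 at PGT, 6.80 at PP, 5.81 at PH and 17.2 at SC-β. KCNF1 had 7.60 TPM in DE and at most 1.73 TPM elsewhere. KCNV1 had 4.94 TPM in DE, 11.1 TPM in PGT and at most 0.577 TPM elsewhere. KCNS3 was at 12.4 TPM in hESCs, 7.81 at DE, 3.36 at PGT, 6.22 at PP, 0.965 at PH and 4.15 at SC-β, so that each of these 4 silent subunits had its maximum in hESCs, DE or PGT. Of the other silent subunits, KCNG3 was highest in hESCs (1.71 TPM) and KCNV2 had nearly equal maxima in SC-β (2.67 TPM) and DE (2.65 TPM).

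KCND2, an A-type channel that inactivates fast, was at 6.05 TPM in hESCs, 4.58 at DE, 1.39 at PGT, 5.54 at PP, 3.96 at PH and 3.93 at SC-β. It was lowest in PGT. Of the 30 Kv pore genes, 9 had their highest mean in PH, 7 in DE, 5 in SC-β, 4 in hESCs, 4 in PGT and 1 in PP. In the same order, the shares of all names were 13.5%, 20.6%, 38.8%, 12.5%, 9.94% and 4.66%.

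Kv auxiliary genes summed to 19.6 TPM in hESCs, 28.8 at DE, 19.4 at PGT, 28.4 at PP, 31.7 at PH and 46.6 at SC-β, and all 11 were at 1 TPM or more in SC-β. KCNIP3 encodes a calcium-binding protein that joins KCND channels and is also known as a transcriptional repressor. It lies at chr2:95297327-95386077 on the forward strand (ENSG00000115041.14) and was at 0.0504 TPM in hESCs, 1.09 at DE, 1.59 at PGT, 3.31 at PP, 4.33 at PH and 3.84 at SC-β. Its level was thus higher at each stage up to PP, and its log2 ratio was 2.205 in SC-β against hESCs and 0.14 in PH against SC-β.

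The other KCNIP genes had other courses. KCNIP1 was at 0.0654 TPM in hESCs, 0.187 at DE, 1.45 at PGT, 4.85 at PP, 2.19 at PH and 3.81 at SC-β. KCNIP4 was at 1.00 TPM in hESCs, 3.09 at DE, 4.17 at PGT, 2.84 at PP, 2.02 at PH and 9.13 at SC-β. KCNIP2 was between 1.00 and 3.75 TPM. In SC-β the 4 KCNIP genes were between 3.75 and 9.13 TPM, and KCND2, the most abundant of their pore-forming partners, was at 3.93 TPM there.

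KCNAB3, a cytoplasmic β subunit, was at 0.258 TPM in hESCs, 1.76 at DE, 1.19 at PGT, 1.86 at PP, 8.60 at PH and 5.94 at SC-β. Among the single-span KCNE subunits, KCNE3 was at 8.48 TPM in hESCs, 7.16 at DE, 1.12 at PGT, 0.815 at PP, 1.54 at PH and 5.41 at SC-β. KCNE5 had 6.05 TPM in PP beside 1.19 TPM in SC-β, and KCNE2 reached 3.44 TPM in SC-β and at most 0.802 TPM elsewhere. KCNE4 was listed at 0 in DE and PGT and was highest in PH (1.93 TPM). The 4 KCNE genes thus had their highest levels at 4 different stages, and KCNE2 and KCNE4 were named after their values were seen.

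PH and SC-β were each compared with PP and with each other. In PH against PP, 14 members (19.4%) were at least 2-fold higher, beside 8.94% of all names, and 8 were lower (11.1%), beside 9.97%. Of the 14, 9 were Kv pore genes. The largest ratios were those of KCNA2 (log2 3.04), KCNK10 (2.46) and KCNH8 (2.19), and the lowest those of KCNK5 (-3.14), KCNK16 (-2.07) and KCNS3 (-1.88).

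In PH against SC-β, 8 members were at least 2-fold higher, beside 4.19% of all names, and 20 were lower (27.8%), beside 25.5%. After rescaling the split was 10 higher and 14 lower, beside 7.40% and 14.4% of all names. Of the 8, 5 were Kv pore genes, and they included KCNH8, KCNA2, KCNK10, KCNH2, KCNJ10, KCNN1 and KCNQ5. Of the 20, 6 were two-pore channels and 6 were inward rectifiers, and the median log2 ratio was -1.14 for two-pore channels, -0.97 for inward rectifiers and -0.14 for Kv pore genes, beside -0.53 for all names. KCNK16 (-3.50), KCNMA1 (-3.44) and KCNK5 (-2.45) had the lowest ratios.

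**Figure D4:**
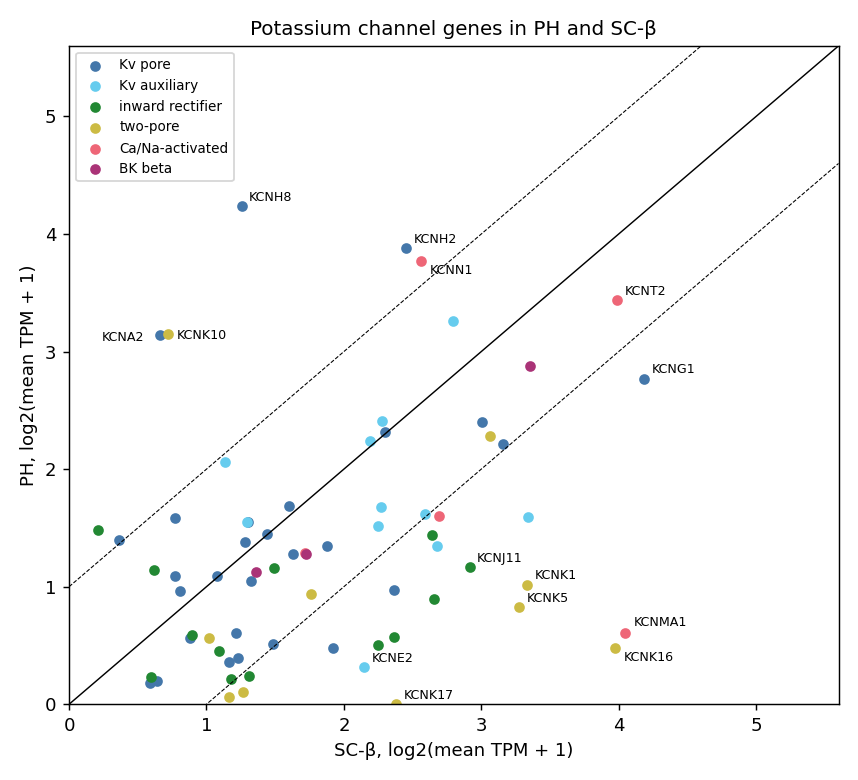
Each point is 1 of 70 potassium channel genes, coloured by class, with log2(mean TPM + 1) in SC-β on the horizontal axis and in PH on the vertical axis; the solid line marks equal levels and the dashed lines 2-fold differences. KCNH8, KCNA2, KCNK10, KCNH2 and KCNN1 lie above the upper dashed line, and KCNK16, KCNMA1, KCNK5, KCNK1, KCNK17 and KCNJ11 below the lower one.

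Markers of other cell types moved with these stages. The 12 neuron markers summed to 1543 TPM in PH, beside 86.1 to 361 TPM in the other stages. In PH 10 of the 12 were highest, beside 13.5% of all names. Of 9 neural progenitor markers, 8 were highest in PH (sum 538 TPM). The part of these cells in the levels of KCNH2, KCNH8, KCNA2, KCNN1 and KCNK10 in PH was not tested. In SC-β, the 15 islet endocrine markers summed to 4272 TPM, beside 13.4 to 344 TPM elsewhere, and 11 were highest there, with GCG, the glucagon gene, at 2793 TPM and INS, the insulin gene, at 298 TPM. The glucagon gene of α cells was thus at a higher level than the insulin gene in organoids labelled as β cells. The 10 mesenchymal and smooth muscle markers summed to 1756 TPM in SC-β, 939 in PH and 85.3 to 177 elsewhere, and 4 of 5 enterochromaffin markers were at least 2-fold higher in SC-β than in PP. What each of these cell types contributed to the levels of KCNMA1, KCNK2, KCNK16 and KCNJ11 in SC-β was not tested.

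Further marker lists are given for all stages. The 7 hepatic markers were all at least 2-fold higher in PGT than in DE (sums 1484 and 48.2 TPM) and summed to 1493 TPM in SC-β. TTR alone gave 943 TPM of the sum in PGT and 1229 TPM of that in SC-β. Of the 7, 3 were highest in PGT and 4 in SC-β. Of 6 neural crest and Schwann markers, 5 were highest in PP. The 6 endothelial markers summed to 200.4 TPM in DE, of which VWF alone gave 191 TPM, while KDR and TEK were highest in hESCs (20.2 and 32.3 TPM) and PECAM1 and CDH5 stayed below 1 TPM. The 8 cardiac and skeletal muscle markers summed to between 2.97 and 13.4 TPM. Of 14 stage markers, 3 were highest in hESCs, 3 at DE, 3 at PGT, 1 at PP, 1 at PH and 3 at SC-β. A few structural RNAs took 33.3% to 52.5% of the TPM of a stage, most in PH.

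Other channel families were set beside the potassium channels. Of 10 pore subunits of voltage-gated calcium channels, 5 were at least 2-fold higher in SC-β than in PP, beside 18.5% of all names. In PH against PP 5 were higher, beside 8.94%, and none was lower in either comparison. CACNA1D, a principal calcium channel of human β cells, was at 1.57 TPM in PP, 1.73 in PH and 13.4 in SC-β. CACNA1C was at 2.12 TPM in PP, 7.52 in PH and 19.4 in SC-β. Of 9 sodium channel pore subunits, 5 were highest in PH, beside 13.5% of all names. Among these 5, SCN3A was highest (37.1 TPM in PH, beside 2.57 in SC-β), and SCN10A reached only 0.0755 TPM. No 1 TPM limit was set for these lists. In SC-β against PP, 0 of the 9 were 2-fold higher, beside 18.5% of all names. Of the 10 calcium channel genes, 4 were highest in SC-β, beside 38.8% of all names, and 2 in PH, beside 13.5%. The 4 included CACNA1D and CACNA1C, whereas CACNA1B was at 6.93 TPM in PH and 1.69 in SC-β.

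Of 11 further proteins that join or resemble potassium channels and have names of another form, 6 were highest in PH, beside 13.5% of all names. Among these 6, LRRC52 (0.359 TPM) and HCN2 (0.560 TPM) stayed below the 1 TPM limit set for the members and all names. LRRC55, an auxiliary subunit of the BK channel, was at 10.6 TPM in PH and 1.62 TPM in SC-β, the reverse of KCNMA1. DPP10, an auxiliary subunit of KCND channels, was between 7.70 and 22.3 TPM, with the highest mean in PGT, where KCND2 was lowest.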

How the data were processed

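RNA-seq of 12 samples, 2 at each of 6 stages, was analysed. Per the labels and the study's methods, ribosomal RNA was removed and strand-specific libraries were made. Alignment by the authors was to hg38 with HISAT2 (2.2.0), and the deposited values are TPM from StringTie (2.1.6), averaged over replicates; the annotation used is not given in the sources used here. TPM keeps no counts, so depth, intervals and tests could not be had, and every value is the authors' mean.

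The table holds 50451 entries under 49085 names; 231 repeated names, none of them a member, were summed. Comparisons used log2((TPM + 1)/(TPM + 1)) and a limit of 2-fold, beside all 28202 names at 1 TPM or more in a stage. Members, classes and gene lists were chosen with earlier results of these data known. Named genes were KCNJ11, KCNIP3, members at 10 TPM or more, the 2 most abundant of each class, and the 3 largest changes per direction and comparison; genes outside it were named after their values were seen. Some members are counted but are not reported here by name.

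Alternatives were a pseudocount of 0.1 TPM, rescaling by median ratios over 13938 genes that reached 1 TPM in all stages, totals without the structural RNAs (RN7SK, RN7SL genes, RMRP, RPPH1 and Metazoa_SRP), a limit of 5 TPM or none, and the highest entry of repeated names. The arithmetic was checked by putting fixed fold changes, without noise, into the hESC values. This check says nothing about the spread between replicates. Python 3.11.15, numpy 2.4.6, pandas 2.3.3 and matplotlib 3.10.9 were used, with GENCODE version 44 and RefSeq on GRCh38.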

Additional observations from a re-analysis of the deposited data

How the results depend on the processing

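No paired analysis was possible because the deposited table gives only the mean of the replicates of each stage, and for the same reason no replicate could be left out. Of 743 values recomputed for 245 results, 651 stayed within the set limits and 35 counts or medians moved. Of the single-gene ratios, 16 dropped below 2-fold, 41 rose above it, and 0 changed sign with 2-fold passed before or after. A change of sign below 2-fold, or in a median, was not counted as a reversal. The median in PH against PP, for example, was -0.02 in the main setting and 0.12 with rescaling. With a pseudocount of 0.1 TPM, 28 members were higher and 6 lower in DE against hESCs (median log2 0.67), beside 40.5% and 6.99% of all names. In PP against PGT 15 were higher and 14 lower (0.18), beside 10.6% and 12.4%. In SC-β against PP 38 were higher and 4 lower (1.10), beside 32.7% and 3.62%. In SC-β against hESCs 45 were higher and 3 lower (1.52), beside 52.0% and 8.65%. In PH against PP 19 were lower, beside 20.4%, and in PH against SC-β 32 (median -0.76), beside 39.4%. With rescaling, which moved the median of all names by -0.34 in DE against hESCs, -0.22 in SC-β against PP, -0.37 in SC-β against hESCs, 0.12 in PGT against DE, 0.17 in PH against PP and 0.38 in PH against SC-β, 9 members were higher and 3 lower in DE against hESCs (median 0.13), 13 higher in SC-β against PP (0.35) and 7 lower in SC-β against hESCs (0.54), and the medians were 0.12 in PH against PP and -0.21 in PH against SC-β. Without structural RNAs, 10 were higher in PP against PGT, beside 7.07% of all names, and 3 lower in SC-β against hESCs (median 0.91), beside 7.83%. The medians were then 0.15 in PH against PP and -0.28 in PH against SC-β. At a limit of 5 TPM, 9 were higher in DE against hESCs, 13 in SC-β against PP (1 lower), 9 in PH against PP and 12 in SC-β against hESCs. In PH against SC-β 13 were lower. Fewer genes entered these counts by construction, and the share of all names at this limit was not computed. Removing the TPM limit could not change the counts of 2-fold differences, and taking the highest entry of repeated names could not change any member, by construction; the counts of members per stage were not recomputed without the limit. The spread between replicates, the depth and any difference smaller than them cannot be judged from these means.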

Other observations

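Of 27 entries with a KCN prefix and a name of another form, mostly antisense transcripts, 8 reached 1 TPM in a stage. KCNQ1OT1, the antisense RNA of the imprinted KCNQ1 locus, was at 1.62 TPM in hESCs, 8.53 at DE, 5.98 at PGT, 4.79 at PP, 9.36 at PH and 19.7 at SC-β. It was thus highest in SC-β, whereas KCNQ1 was highest in DE (1.92 TPM) and at 0.843 TPM in SC-β. KCNMB2-AS1 was at 5.69 TPM in hESCs and at most 2.76 TPM later, while KCNMB2 stayed between 0.285 and 1.56 TPM. KCNQ1DN (2.25 TPM), KCNQ5-AS1 (1.13 TPM) and KCNH1-IT1 (1.12 TPM) were highest in PH, and KCNRG (2.73 TPM) in SC-β. These entries were named after their values were seen.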
